A study of Mus musculus with 18 samples.

Results

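The comparison described here is the difference of the cGAMP effect between tumour and normal breast vessels, that is, the change under cGAMP in endothelial cells (ECs) of spontaneous MMTV-PyMT tumours minus the change in ECs of the normal mammary fat pad. It rests on 12 of the 18 bulk RNA-seq libraries of the series, chosen by their labels alone, with 3 libraries in each of 4 groups. cGAMP, a cyclic dinucleotide, is an agonist of the adaptor STING, and PBS is the saline in which it was given. In both tissues ECs were collected 3 hr after the injection and sorted as live CD31-positive, CD45-negative cells. The question of the comparison is whether tumour ECs of the spontaneous model respond to the agonist as ECs of normal breast do.

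Normal ECs came from the fat pad of wild type female mice of the FVB strain and tumour ECs from breast tumours of MMTV-PyMT females, likewise FVB. Each genotype received either PBS or cGAMP, and the labels name no other allele or agent. The MMTV promoter drives the polyoma middle T oncogene in the mammary epithelium, so the oncogene acts in the tumour cells around the vessels. The columns of normal ECs name only the treatment and replicate and were matched to their samples because all other columns name a tumour. The labels give no age, and by the study's methods the MMTV-PyMT females were young adults when treatment began. By its description the libraries of a group came from separate mice and independent experiments, which the labels do not number. The site of injection in normal mice is not named in the study's methods and was presumably the fat pad, against the tumour in MMTV-PyMT mice. Genotype, tissue and site of injection therefore cannot be told apart. The 6 libraries of implanted tumours add to the estimate of the spread and enter no value of the comparison.

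By way of background, STING activates the kinase TBK1 and the factors IRF3 and NF-kB, which switch on type I interferon and inflammatory genes. Interferon then acts through receptor-bound kinases, among them TYK2, and through STAT factors on genes that carry the interferon-stimulated response element (ISRE) or the gamma-activated site (GAS). ECs respond to interferon and to inflammatory cytokines with guanylate-binding proteins, chemokines and adhesion molecules. Arterial ECs are also marked by Notch signalling and by genes that depend on blood flow, such as the flow-induced factor KLF2 and the gap junction protein connexin 40, encoded by Gja5.

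The 12 libraries held between 9317813 and 11890221 whole reads, recovered from the deposited FPKM values, which express fragments relative to gene length and library size. Over all tested genes, libraries of 1 group correlated with Pearson r from 0.971 to 0.989 and libraries of different groups with r from 0.821 to 0.961. In total 13983 genes were tested. All differences below are in log2(FPKM + 1), a scale that makes changes of low genes look smaller.

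Cell type markers were checked first, because a shift in cell content would move many genes together. The 12 endothelial markers, which include Pecam1 and Cdh5, summed to between 1330 and 1501 FPKM in normal ECs under PBS and between 1215 and 1346 FPKM under cGAMP. In MMTV-PyMT ECs they summed to between 863 and 1059 FPKM under PBS and between 932 and 1268 FPKM under cGAMP. Their median difference of the effect was 0.32, and 2 of 12 passed as higher (Ramp2 and Tek), 16.7% against 5.48% of all tested genes. The 12 epithelial markers were at 501 to 651 FPKM and 507 to 566 FPKM in normal ECs, and at 1181 to 1297 FPKM and 781 to 1106 FPKM in MMTV-PyMT ECs, with a median difference of −0.36 and 0 passing at an adjusted p under 0.05 (limma). Epithelial markers were thus present in all libraries, with the highest sums in MMTV-PyMT ECs under PBS, whereas the milk protein sums given further on were highest in MMTV-PyMT ECs under cGAMP (1159 to 1801 FPKM). The 13 leukocyte markers in the table summed to between 84.6 and 125 FPKM under PBS and between 80.3 and 160 FPKM under cGAMP in normal ECs. In MMTV-PyMT ECs they summed to between 107 and 127 FPKM under PBS and, without overlap, to between 134 and 161 FPKM under cGAMP. Of these markers 0 passed, and S100a8, S100a9 and Itgam were not in the table used here. The 10 mural markers were at 916 to 1250 FPKM in normal ECs and at 262 to 407 FPKM in MMTV-PyMT ECs, again with 0 passing, and so were the 10 fibroblast, 4 lymphatic endothelial, 4 erythroid and 3 adipocyte markers that were tested. In bulk samples fewer cells of a type and less RNA per cell cannot be told apart. The part of these shifts in the results that follow was not tested.

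**Figure D1:**
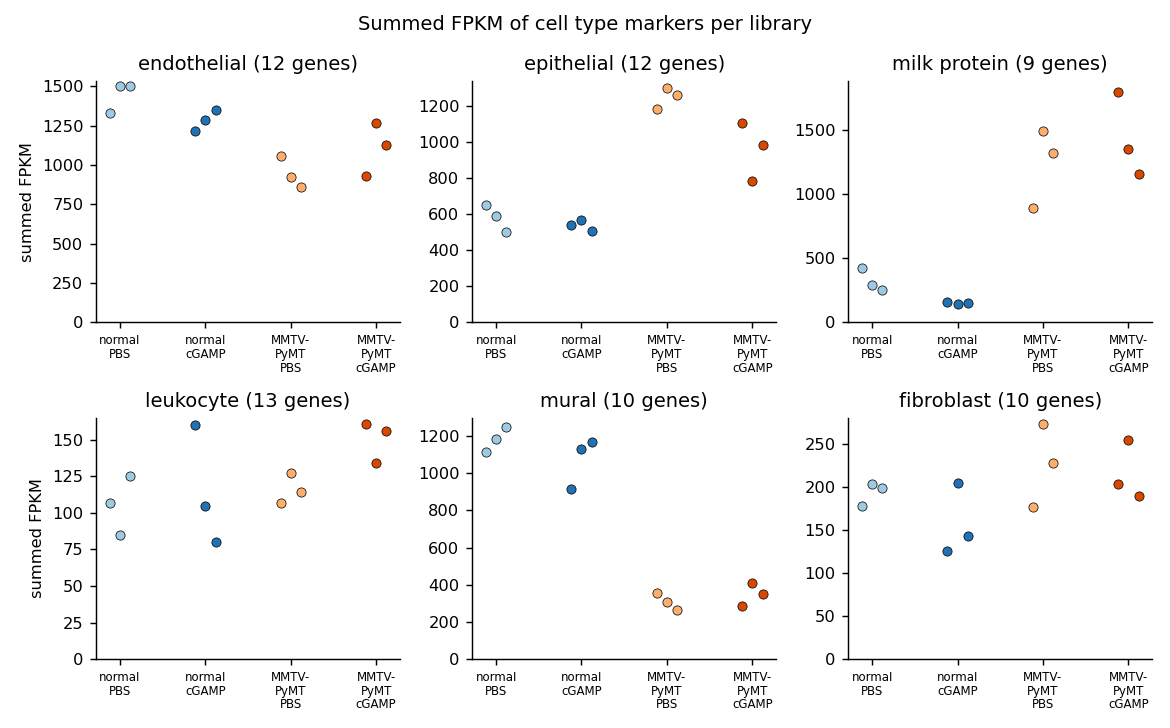
Summed FPKM (y axis, from 0) of 6 lists of cell type markers in each of the 12 libraries, by group (x axis), with 1 point per library. Endothelial sums were lower under cGAMP than under PBS in normal ECs on average and higher in MMTV-PyMT ECs, and epithelial sums were highest in MMTV-PyMT ECs under PBS (1181 to 1297).

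The effect of cGAMP differed between the tissues for a small share of genes. A gene was called when its adjusted p was under 0.05 (limma with Benjamini-Hochberg adjustment) and the difference at least 1 on the log2 scale, which is 2-fold. By this rule 179 genes were called higher in MMTV-PyMT ECs (1.28% of the tested genes) and 66 lower (0.472%). By the adjusted p alone, 766 genes were higher (5.48%) and 405 lower (2.90%). The larger number on the higher side depended in part on the scaling. Of the called genes 73.06% were higher with the deposited values, against 52.67% with scaling by total reads (128 higher and 115 lower), which moved the median difference over all tested genes from 0.01 to −0.09. By the adjusted p alone that scaling turned the balance over, to 566 higher and 888 lower.

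**Figure D2:**
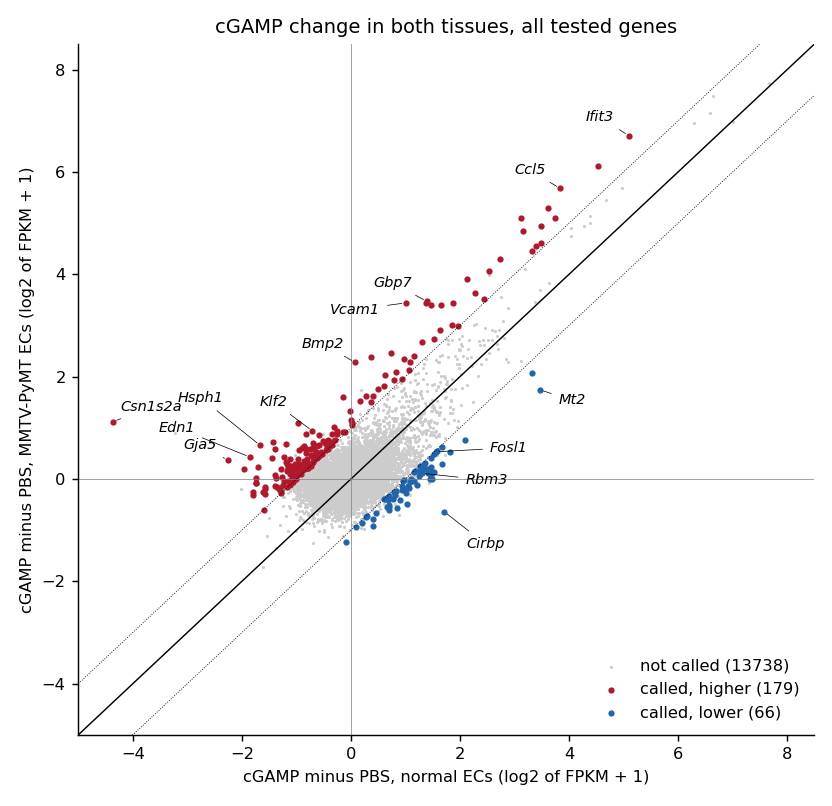
Change under cGAMP in normal ECs (x axis) against the change in MMTV-PyMT ECs (y axis), both in log2(FPKM + 1), for all 13983 tested genes. The solid line marks equal change and the dotted lines a difference of 1. The 179 genes called higher (red) include a branch above zero in both tissues and a branch that fell in normal ECs. A further 25 of them rose in MMTV-PyMT ECs and did not pass in normal ECs. Most of the 66 called lower (blue) form a lower branch that rose in normal ECs.

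The called genes were described by what cGAMP did to them in each tissue on its own. These within-tissue changes share their libraries with the difference and are no separate support for it. Of the 179 genes called higher, 96 fell in normal ECs and did not pass in MMTV-PyMT ECs, 37 rose in both tissues, 25 rose in MMTV-PyMT ECs and did not pass in normal ECs, and 17 fell in normal and rose in MMTV-PyMT ECs. The other 4 comprised 3 that passed in neither tissue and 1 that fell in both. Their median change was −0.75 in normal ECs and 0.50 in MMTV-PyMT ECs, while the medians over all tested genes were −0.04 in both. Of the 66 genes called lower, 47 rose in normal ECs and did not pass in MMTV-PyMT ECs, and their median change was 1.08 in normal and −0.09 in MMTV-PyMT ECs. A change that passes in 1 tissue and not in the other is given here only for genes whose difference itself was called.

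The same difference can be read as a change in the distance between tissues. A shift of at least 1 between the tissue differences under PBS and under cGAMP was therefore fixed by the call. These tissue differences share their libraries with it and are no separate support. Under PBS 155 of the 179 genes called higher were at a lower level in MMTV-PyMT than in normal ECs, with a median tissue difference of −1.25. Under cGAMP 49 were lower, 52 were higher and 78 did not pass, with a median of 0.02. For the 66 genes called lower, the median tissue difference was 0.71 under PBS, where 42 were higher in MMTV-PyMT ECs, and −0.51 under cGAMP, where 40 were lower. In both sets the tissues were thus set apart under PBS for most genes, and after cGAMP the higher set stood close to level on average and the lower set on the other side of zero.

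Interferon-inducible genes formed one group with a larger rise in MMTV-PyMT ECs. Of 33 tested genes of interferon-induced GTPases and antigen presentation, 12 passed as higher, 0 as lower and 21 did not pass. The 12 were 36.4%, against 5.48% of all tested genes, and the median difference was 0.54 against 0.01. Of 48 type I interferon response genes, 14 passed as higher (29.2%), 0 as lower and 34 did not pass, with a median of 0.62. The count of 14 rested on single libraries. It was 6 without normal PBS 2, 7 without normal cGAMP 3, MMTV-PyMT PBS 1 or MMTV-PyMT cGAMP 3, 8 without MMTV-PyMT PBS 3 or cGAMP 2, and 9 without normal PBS 3 or with the replicate block. Of the 26 genes that passed over both lists, 24 were at a lower level in MMTV-PyMT than in normal ECs under PBS (limma). Under cGAMP 5 were higher, 0 were lower and 21 did not pass. The 26 were picked by the change between these tissue differences, so the shift is no separate support.

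Because several of these genes sit together in the genome and share regulatory letters, the 250 bases before a RefSeq start of 4 of them are shown. The sequences are from RefSeq on GRCm38.p6, plus strand, 5′ to 3′. Capitals mark the letters of the ISRE searched here (GAAA, any 2 bases and GAAA, or TTTC, any 2 bases and TTTC for the other strand) and of the GAS (TTC, any 3 bases and GAA, which reads the same on both strands), and Gbp7, Gbp5, Ifit3 and Igtp were chosen for print because they passed and hold such letters.
Gbp7 (chr3:142530086-142530335): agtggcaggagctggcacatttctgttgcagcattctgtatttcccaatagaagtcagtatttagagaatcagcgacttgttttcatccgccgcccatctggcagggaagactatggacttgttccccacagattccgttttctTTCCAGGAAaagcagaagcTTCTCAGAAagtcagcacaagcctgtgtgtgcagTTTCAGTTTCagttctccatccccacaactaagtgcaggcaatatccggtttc
Gbp5 (chr3:142496684-142496933): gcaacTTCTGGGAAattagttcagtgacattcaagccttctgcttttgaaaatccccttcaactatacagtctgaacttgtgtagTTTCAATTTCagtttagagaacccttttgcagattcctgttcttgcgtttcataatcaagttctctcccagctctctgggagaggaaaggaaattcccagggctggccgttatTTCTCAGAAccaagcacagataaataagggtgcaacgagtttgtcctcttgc
Ifit3 (chr19:34583279-34583528): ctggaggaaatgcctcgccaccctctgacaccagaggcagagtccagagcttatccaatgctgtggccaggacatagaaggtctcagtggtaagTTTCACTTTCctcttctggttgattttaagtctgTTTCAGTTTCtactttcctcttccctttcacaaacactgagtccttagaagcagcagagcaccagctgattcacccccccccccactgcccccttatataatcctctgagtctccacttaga
Igtp (chr11:58199306-58199555): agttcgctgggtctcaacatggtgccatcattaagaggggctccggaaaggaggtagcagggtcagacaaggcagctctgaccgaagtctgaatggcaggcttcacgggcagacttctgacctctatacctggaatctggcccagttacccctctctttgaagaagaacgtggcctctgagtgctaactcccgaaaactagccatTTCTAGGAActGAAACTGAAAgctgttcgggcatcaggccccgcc

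Counted from that RefSeq start at +1, with −1 as the base before it, the window of Gbp7 held an ISRE from −53 to −44 and GAS letters from −106 to −98 and from −87 to −79. That of Gbp5 held an ISRE from −165 to −156 and GAS letters from −245 to −237 and from −52 to −44. The Gbp5 window lies within the annotated gene (chromosome 3, 142493978 to 142522344) and not before its annotated start. Ifit3 had an ISRE from −156 to −147 and another from −122 to −113. In Igtp the GAS letters, from −45 to −37, stood next to an ISRE from −34 to −25. No match overlapped another. RefSeq windows were found for 9831 of the 13983 tested genes, and 3.20% of them held the ISRE and 7.14% the GAS. Among the 124 genes called higher with a window, 10.5% held the ISRE and 10.5% the GAS, and among the 36 called lower 2.78% held either one. Within the interferon lists the ISRE was in 11 of 19 windows of members that passed (57.9%) and in 14 of 40 windows of members that did not (35%). These are matches of letters and not sites of binding.

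Gbp7, a guanylate-binding protein (chromosome 3, 142530342 to 142550149), was at 17.1, 20.1 and 19.7 FPKM in the normal PBS libraries and at 59.0, 57.2 and 39.9 FPKM under cGAMP. In MMTV-PyMT ECs it was at 6.19, 6.46 and 5.34 FPKM under PBS and at 66.3, 78.7 and 85.8 FPKM under cGAMP. All MMTV-PyMT libraries lay below the normal libraries under PBS and above them under cGAMP. The rise was 3.47 in MMTV-PyMT and 1.39 in normal ECs, a difference of 2.08 (SE 0.21, Benjamini-Hochberg adjusted p = 1.52e-04 by limma).

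Gbp9 (chromosome 5, 105077630 to 105139539), of the same family, had 21.9, 22.6 and 25.5 FPKM in normal ECs under PBS and 33.5, 29.9 and 27.2 FPKM under cGAMP. The MMTV-PyMT libraries had 4.60, 4.33 and 3.88 FPKM under PBS and 16.8, 36.8 and 29.3 FPKM under cGAMP, so the tissues were apart under PBS and overlapped under cGAMP. Its difference was 2.02 (SE 0.28, adjusted p = 8.78e-04), with a rise of 2.38 in MMTV-PyMT ECs and a change of 0.36 in normal ECs that did not pass (Benjamini-Hochberg adjusted p = 0.178 by limma). Gbp5 differed by 1.69, Gbp2 by 1.56 and Gbp4 by 1.37. Members of the Gbp family are near-identical in part, and the counting may split or drop their reads. Irgm2 and Iigp1, GTPases that act on intracellular vacuoles, differed by 1.14 and 1.13, and Igtp by 1.45. The checkpoint ligand gene Cd274, which encodes PD-L1, differed by 1.34 (SE 0.35) and did not pass in 7 fits that left out 1 library (1.21 to 1.33 without normal PBS 2, PBS 3 or cGAMP 3, or MMTV-PyMT PBS 2, PBS 3, cGAMP 2 or cGAMP 3). Psmb9 and Psmb10, subunits of the immunoproteasome, differed by 0.93 and 0.81. Gm12250, annotated as a processed pseudogene (chromosome 11, 58187739 to 58189012), had a difference of 1.99 (SE 0.35, Benjamini-Hochberg adjusted p = 0.00379 by limma).

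Ifit3 (chromosome 19, 34583531 to 34588731) encodes an interferon-induced antiviral protein. It stood at 4.66, 8.17 and 4.28 FPKM in normal ECs under PBS and at 0.820, 2.06 and 1.98 FPKM in MMTV-PyMT ECs. Under cGAMP the libraries had 244, 235 and 187 FPKM in normal and 278, 259 and 260 FPKM in MMTV-PyMT ECs. The level under PBS was lower in all 3 MMTV-PyMT libraries and the level under cGAMP higher, with a tissue difference of −1.35 under PBS that passed (adjusted p = 1.45e-04) and of 0.27 under cGAMP that did not (Benjamini-Hochberg adjusted p = 0.353 by limma). The difference of the effect was 1.61 (SE 0.33, Benjamini-Hochberg adjusted p = 0.00829 by limma). Its near copy Ifit3b had 1.59, which missed the threshold in 5 fits with 1 library left out (1.27 to 1.60 without normal PBS 2, normal cGAMP 3 or MMTV-PyMT PBS 1, PBS 3 or cGAMP 3).

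Stat2, a transcription factor of the interferon signal, differed by 0.77. Tor3a, an interferon-inducible member of the torsin family, differed by 1.55, with 6.11 to 6.16 FPKM under PBS and 55.0 to 89.6 FPKM under cGAMP in MMTV-PyMT ECs. Parp14, an ADP-ribosyltransferase, differed by 1.07, Samd9l, a restriction factor, by 1.02, and Mx1, an antiviral GTPase, by 0.87. Mx1 was at 0.119 to 0.609 FPKM in the 6 PBS libraries, and it did not pass without normal PBS 2 (0.82), with a pseudocount of 0.1 (0.76), with voom on recovered reads (0.80), with scaling by total reads (0.73) or with quantile normalization (0.57).

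Some of the genes with the largest response to cGAMP did not show a difference that passed. Rsad2, which encodes the antiviral protein viperin, rose by 7.49 in the tumour and by 6.64 in the fat pad, and its difference of 0.85 (SE 0.28) had an adjusted p of 0.073 (limma with Benjamini-Hochberg adjustment). Oasl2, of the oligoadenylate synthetase family, had 0.79 (SE 0.33) and Isg15, a ubiquitin-like modifier, 0.78 (SE 0.36), neither of which passed. Cxcl10, the chemokine with the largest rise, had 0.06 (SE 0.31). Cxcl10 was chosen after its values were seen.

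Chemokines, cytokines and targets of NF-kB were looked at next. Of 25 chemokines and cytokines, 5 passed as higher and 0 as lower, with a median difference of 0.53. The 5 were 20%, against 5.48% of all tested genes. The 5 became 2 without normal PBS 2, normal PBS 3 or MMTV-PyMT cGAMP 3, and 3 without normal cGAMP 2, normal cGAMP 3, MMTV-PyMT PBS 2, MMTV-PyMT PBS 3 or MMTV-PyMT cGAMP 2. Of 31 NF-kB subunits, feedback genes and targets, 2 passed as higher and 0 as lower, and the median was 0.35. That share, 6.45%, was near the 5.48% of all tested genes, and 1 of the 2, Cd40, did not hold in most fits with a library left out.

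Ccl5, a chemokine for T cells (chromosome 11, 83525778 to 83530518), was at 0.794, 1.58 and 1.63 FPKM in normal ECs under PBS and at 32.0, 43.3 and 23.2 FPKM under cGAMP. MMTV-PyMT ECs had 0.0785, 0.0961 and 0.246 FPKM under PBS and 68.5, 48.3 and 56.5 FPKM under cGAMP. The lowest of the tumour cGAMP libraries lay above the highest of the normal ones, while under PBS the order of the tissues was the other way. Its difference was 1.84 (SE 0.30, Benjamini-Hochberg adjusted p = 0.00287 by limma).

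Tnfsf10, which encodes the death ligand TRAIL, differed by 1.73 (SE 0.21, adjusted p = 4.39e-04), rising by 2.46 in MMTV-PyMT and by 0.73 in normal ECs (limma with Benjamini-Hochberg adjustment). Cxcl9, a chemokine induced by interferon-gamma, differed by 1.68 and did not pass in 6 fits that left out 1 library (1.41 to 1.67 without normal PBS 2, PBS 3 or cGAMP 3, or MMTV-PyMT PBS 2, cGAMP 2 or cGAMP 3). The alarmin Il33 differed by 1.36 and fell in normal ECs by 1.10 on the log2 scale, and it did not pass in 7 such fits (1.21 to 1.34 without normal PBS 2, PBS 3, cGAMP 1 or cGAMP 2, or MMTV-PyMT PBS 1, PBS 3 or cGAMP 3). Ccl7 and Il1b, a monocyte chemokine and an inflammatory cytokine, had 1.45 (SE 0.46) and 1.03 (SE 0.61) and did not pass.

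Vcam1, the adhesion molecule that binds leukocyte integrins (chromosome 3, 116109949 to 116129688), was the adhesion gene that differed most. Normal ECs had 14.4, 18.3 and 17.9 FPKM under PBS and 43.2, 36.3 and 25.9 FPKM under cGAMP. MMTV-PyMT ECs had 2.86, 1.70 and 1.68 FPKM under PBS and 23.9, 39.9 and 34.2 FPKM under cGAMP. The tissues were far apart under PBS (−2.55) and overlapped under cGAMP (−0.10), and the difference of the effect was 2.45 (SE 0.35, Benjamini-Hochberg adjusted p = 0.00108 by limma). The other adhesion genes Sele (0.92, SE 0.48), Selp (0.75, SE 0.37) and Icam1 (0.68, SE 0.30) did not pass. Ch25h, which makes the oxysterol 25-hydroxycholesterol and is induced by interferon (chromosome 19, 34473778 to 34475164), went from 10.1, 8.94 and 12.6 FPKM to 33.5, 29.0 and 24 FPKM in normal ECs and from 2.77, 2.20 and 0.908 FPKM to 19.9, 30.1 and 42.9 FPKM in MMTV-PyMT ECs. Its difference was 2.05 (SE 0.45, Benjamini-Hochberg adjusted p = 0.0116 by limma). The costimulatory receptor gene Cd40 differed by 1.20, and it did not pass in 9 fits that left out 1 library (0.95 to 1.23; all but normal cGAMP 1, MMTV-PyMT PBS 2 and MMTV-PyMT cGAMP 1), nor with a pseudocount of 0.1 (1.32), voom on recovered reads (1.30) or the replicate block (1.20).

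**Figure D3:**
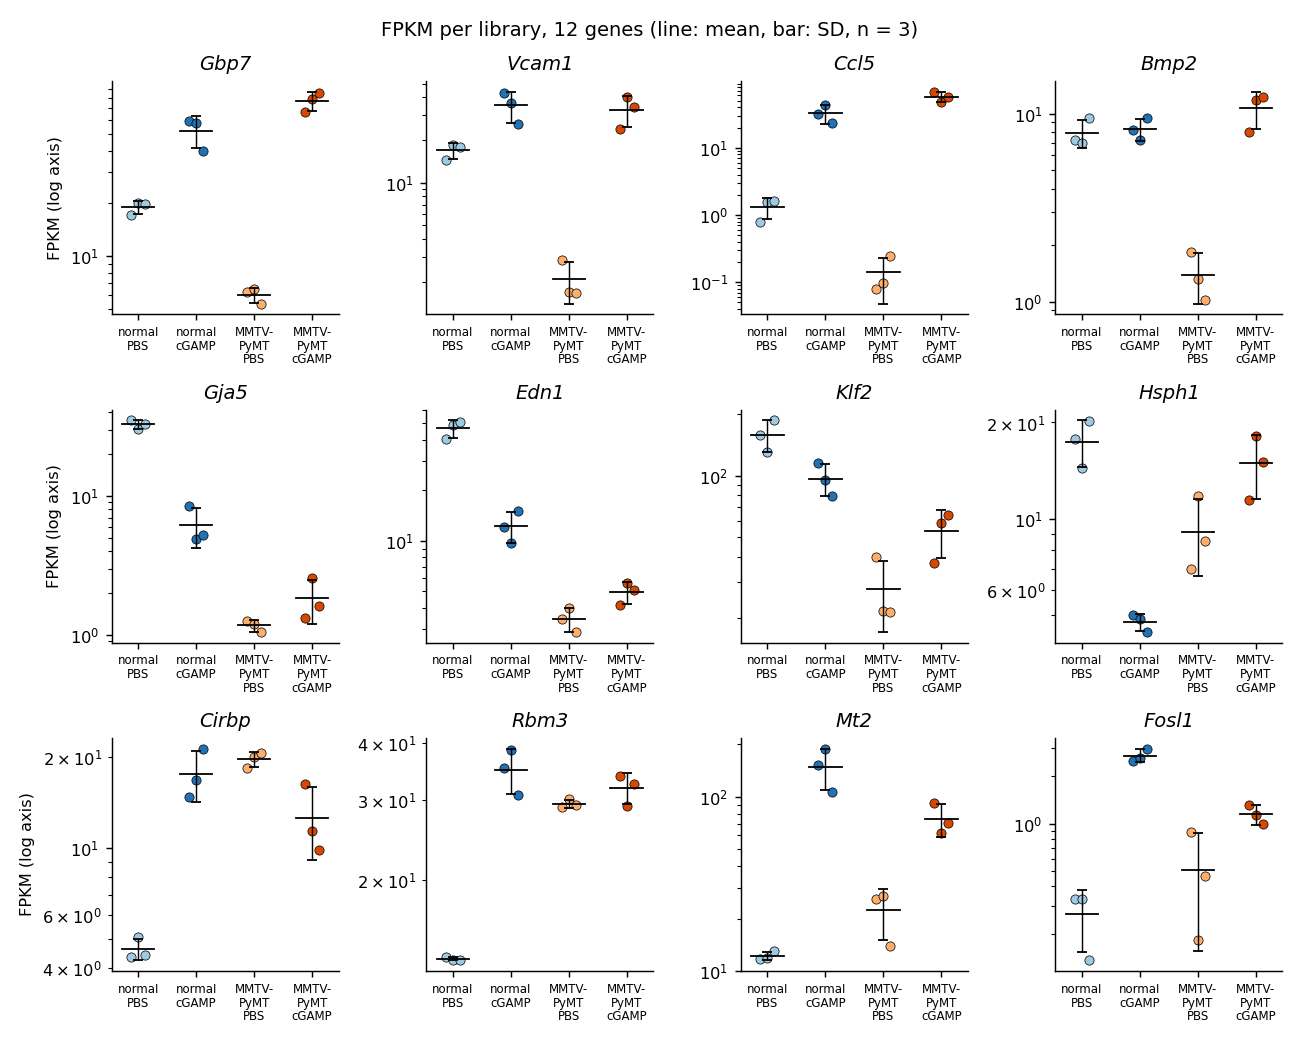
FPKM per library on a log axis (y) for 12 genes in 4 groups (x), with points for libraries, a line for the mean and a bar for the SD (n = 3). Gbp7, Vcam1, Ccl5 and Bmp2 were lower in MMTV-PyMT than in normal ECs under PBS, Gja5, Edn1 and Klf2 fell in normal ECs and stayed below them in MMTV-PyMT ECs, and Cirbp, Rbm3, Mt2 and Fosl1 rose most in normal ECs.

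Arterial, Notch, flow-dependent and venous genes were looked at as markers of vessel type. Of 26 Notch and arterial genes, 9 passed as higher and 0 as lower, and 17 did not pass. The 9 were 34.6%, against 5.48% of all tested genes. The median difference was 0.69, with a median change of −0.74 in normal and 0.04 in MMTV-PyMT ECs. Of 17 shear-response and vascular tone genes, 4 passed as higher (Edn1, Klf2, Nos3 and Thbd) and 1 as lower (F3), with a median change of −0.14 in normal and 0.39 in MMTV-PyMT ECs. These were 23.5% and 5.88%, against 5.48% and 2.90% of all tested genes. Of 14 venous and stalk-like genes 4 passed as higher (Vcam1, Bmp4, Ackr1 and Tek), 28.6% against 5.48% of all tested genes, with a median of 0.83 and median changes of −0.03 in normal and 0.41 in MMTV-PyMT ECs. In the shear and venous lists the 4 higher members became 2 without normal PBS 2, normal PBS 3, MMTV-PyMT PBS 3, MMTV-PyMT cGAMP 2 or MMTV-PyMT cGAMP 3, and also without normal cGAMP 3 in the shear list and without normal cGAMP 2 or MMTV-PyMT PBS 2 in the venous list. Endothelial marker sums moved in the same direction, down in normal and up in MMTV-PyMT ECs under cGAMP as given above, with a median difference of 0.32. Pecam1 and Cdh5, which define ECs, had 0.53 (SE 0.21) and 0.21 (SE 0.24) and did not pass.

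Gja5 (chromosome 3, 96904693 to 97077416) was at 35.0, 30.2 and 33.1 FPKM in normal ECs under PBS and at 8.51, 4.90 and 5.25 FPKM under cGAMP. In MMTV-PyMT ECs it was at 1.27, 1.19 and 1.05 FPKM under PBS and at 1.33, 2.57 and 1.62 FPKM under cGAMP. The normal groups did not overlap with each other or with either tumour group, and the tumour libraries were low under both treatments. The fall of 2.26 on the log2 scale in normal ECs (adjusted p = 6.87e-08) set against a change of 0.37 in MMTV-PyMT ECs that did not pass (adjusted p = 0.158) gave a difference of 2.62 (SE 0.23, Benjamini-Hochberg adjusted p = 6.09e-05 by limma). With the tumour libraries this low under PBS, a fall as large as in normal ECs could not have shown there on this scale.

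Edn1, which encodes the vasoconstrictor endothelin 1 (chromosome 13, 42301476 to 42307990), had 40.4, 48.6 and 51.1 FPKM in normal ECs under PBS and 12.1, 9.77 and 15 FPKM under cGAMP. MMTV-PyMT ECs had 3.42, 3.97 and 2.87 FPKM under PBS and 4.14, 5.65 and 5.11 FPKM under cGAMP. The normal groups did not overlap, the tumour libraries were low under both treatments, and the difference was 2.29 (SE 0.28, Benjamini-Hochberg adjusted p = 5.51e-04 by limma).

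Klf2, the flow-induced transcription factor (chromosome 8, 72319033 to 72321656), had 158, 130 and 187 FPKM in normal ECs under PBS and 115, 95.2 and 79.7 FPKM under cGAMP. In MMTV-PyMT ECs it had 39.9, 21.7 and 21.4 FPKM under PBS and 37.3, 58.6 and 64.1 FPKM under cGAMP. It thus changed in opposite directions, by −0.71 and by 0.94, each of which passed (adjusted p = 0.034 and 0.0167), and the tumour groups overlapped through PBS library 1 and cGAMP library 1. Its difference was 1.65 (SE 0.34, Benjamini-Hochberg adjusted p = 0.00853 by limma). Nos3, the endothelial nitric oxide synthase, differed by 1.26, and it did not pass in 6 fits that left out 1 library (1.09 to 1.26 without normal PBS 2, PBS 3 or cGAMP 3, or MMTV-PyMT PBS 3, cGAMP 2 or cGAMP 3). The anticoagulant receptor gene Thbd differed by 0.95 and did not pass in 9 such fits (0.79 to 1.02; all but normal cGAMP 1, MMTV-PyMT PBS 1 and MMTV-PyMT cGAMP 1). Klf4, a relative of Klf2, had 0.68 (SE 0.26) and did not pass.

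Among the Notch genes, the ligand Jag1 (chromosome 2, 137081456 to 137116644) was at 56.7, 56.3 and 57.4 FPKM in normal ECs under PBS and at 33.2, 29.5 and 33.2 FPKM under cGAMP, while MMTV-PyMT ECs had 8.73 to 13.1 FPKM under PBS and 11.4 to 15 FPKM under cGAMP. Its difference was 1.13 (SE 0.21, Benjamini-Hochberg adjusted p = 0.00591 by limma). The ligand Jag2 differed by 1.0, the Notch target Hey2 by 1.08 and the receptor Notch4 by 0.73. Hey2 had a mean of 0.329 FPKM in MMTV-PyMT ECs under PBS, too low for its change of −0.86 in normal ECs to show there on this scale. Vegfc, a lymphangiogenic growth factor also made by arterial ECs, differed by 1.53 (SE 0.31), with a fall of 1.19 on the log2 scale in normal ECs. Sema3g, a semaphorin of arterial ECs, differed by 0.98, the kinase gene Bmx by 0.95 and the elastic fibre gene Fbln5 by 0.79. Sema3g did not pass in 5 fits that left out 1 library (0.80 to 0.98 without normal PBS 3 or cGAMP 2, or MMTV-PyMT PBS 2, PBS 3 or cGAMP 2), and Notch4 did not pass in 11 (0.59 to 0.78; all but MMTV-PyMT cGAMP 1). Bmx did not pass with a pseudocount of 0.1 (1.11). Dll4, the main Notch ligand of arterial ECs and tip cells, chosen after its values were seen, had 0.62 (SE 0.26), and Mgp (0.84, SE 0.29), Hey1 (0.74, SE 0.26) and Sox17 (0.74, SE 0.27) likewise did not pass.

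Several genes outside the lists had the same arrangement. Nuak1, an AMPK-related kinase (chromosome 10, 84370905 to 84440597), went from 31.2, 29.5 and 37.0 FPKM to 14.9, 7.70 and 12.7 FPKM in normal ECs and from 2.96, 3.44 and 2.38 FPKM to 3.94, 7.77 and 5.22 FPKM in MMTV-PyMT ECs. Its difference was 2.16 (SE 0.30, Benjamini-Hochberg adjusted p = 0.00103 by limma), and the lowest normal cGAMP library was just below the highest tumour cGAMP library. Amigo2, a cell adhesion gene, went from 32.1, 30.6 and 39.2 FPKM to 17, 15.5 and 17.7 FPKM in normal ECs and from 3.93, 3.24 and 2.89 FPKM to 9.42, 8.5 and 6.91 FPKM in MMTV-PyMT ECs, so that it fell in one and rose in the other without overlap. Its difference was 2.06 (SE 0.21, Benjamini-Hochberg adjusted p = 1.52e-04 by limma). Depp1, a target of FOXO factors, differed by 1.94 (SE 0.39), with 144 to 234 FPKM and 41.7 to 65.6 FPKM in normal ECs against 32.9 to 41.5 FPKM and 25 to 61.3 FPKM in MMTV-PyMT ECs. Gper1, a G protein-coupled estrogen receptor, and Tmem100, an endothelial target of BMP receptors, were picked after their values were seen and differed by 1.38 (SE 0.17) and 1.42 (SE 0.20). Gper1 fell by 1.57 and Tmem100 fell by 1.58 on the log2 scale in normal ECs. In MMTV-PyMT ECs under PBS their means were 1.67 and 1.30 FPKM, so falls of that size could not have shown there on this scale.

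Of 23 genes of TGF-beta and BMP signalling 3 passed as higher (Bmp2, Bmp4 and Acvrl1), 0 as lower and 20 did not pass, with a median of 0.15. The 3 were 13%, against 5.48% of all tested genes. Without MMTV-PyMT cGAMP 1, 5 passed. Bmp2, a ligand that ECs release (chromosome 2, 133552159 to 133562885), had 7.27, 7.02 and 9.45 FPKM in normal ECs under PBS and 8.20, 7.25 and 9.45 FPKM under cGAMP, so the normal groups overlapped. In MMTV-PyMT ECs it had 1.84, 1.32 and 1.02 FPKM under PBS and 7.97, 11.9 and 12.3 FPKM under cGAMP. The change was 2.28 in MMTV-PyMT ECs and 0.07 in normal ECs, and the difference was 2.22 (SE 0.40, Benjamini-Hochberg adjusted p = 0.00499 by limma). Bmp4 differed by 1.18 (SE 0.27). Gdf11, a ligand of the activin branch picked after its values were seen, went from 0.983, 1.18 and 1.24 FPKM to 4.88, 5.17 and 5.48 FPKM in MMTV-PyMT ECs and stayed between 5.98 and 8.84 FPKM in all 6 normal libraries. Its difference was 1.37 (SE 0.16, Benjamini-Hochberg adjusted p = 3.68e-04 by limma). Acvrl1, the receptor ALK1, differed by 0.86 and did not pass without normal PBS 3 (0.82) and without MMTV-PyMT cGAMP 2 (0.77). Id3, a target of BMP signalling, had 0.85 (SE 0.31) and did not pass.

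Of 23 tip-like and angiogenic genes 2 passed as higher (Pdgfb, the growth factor that recruits pericytes, 0.88, and Plxnd1, a semaphorin receptor, 0.80). The 2 were 8.7%, against 5.48% of all tested genes. The 2 became 4 without MMTV-PyMT cGAMP 1. They became 0 without normal PBS 2, normal PBS 3, MMTV-PyMT PBS 3, MMTV-PyMT cGAMP 2 or MMTV-PyMT cGAMP 3. They became 1 with a pseudocount of 0.1, no filter, no trend, scaling by total reads or the replicate block. They also became 1 without normal PBS 1, normal cGAMP 1, normal cGAMP 2 or MMTV-PyMT PBS 2. Pdgfb did not pass in 5 fits that left out 1 library (0.75 to 0.89 without normal PBS 2 or PBS 3, or MMTV-PyMT PBS 3, cGAMP 2 or cGAMP 3), and Plxnd1 did not pass in 9 (0.64 to 0.88; all but normal cGAMP 3, MMTV-PyMT PBS 1 and MMTV-PyMT cGAMP 1). Of 20 lipid-handling genes of fat-pad capillaries 1 passed, Meox2, a homeobox factor of fat and muscle capillaries. That share, 5%, was near the 5.48% of all tested genes. Meox2 had a difference of 0.88 (SE 0.20) and a fall of 1.24 on the log2 scale in normal ECs. Its levels there were 38.6, 40.7 and 39.9 FPKM under PBS, against 7.97 to 9.30 FPKM in MMTV-PyMT ECs. Ackr1, the decoy chemokine receptor of venules, differed by 1.14, and Tek, the angiopoietin receptor, by 0.90. Both did not pass in most fits that left out 1 library, Ackr1 in 9 (1.02 to 1.20; all but normal cGAMP 1, MMTV-PyMT PBS 1 and MMTV-PyMT cGAMP 1) and Tek in 8 (0.81 to 0.91; all but normal PBS 1, normal cGAMP 3, MMTV-PyMT PBS 1 and MMTV-PyMT cGAMP 1).

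**Figure D4:**
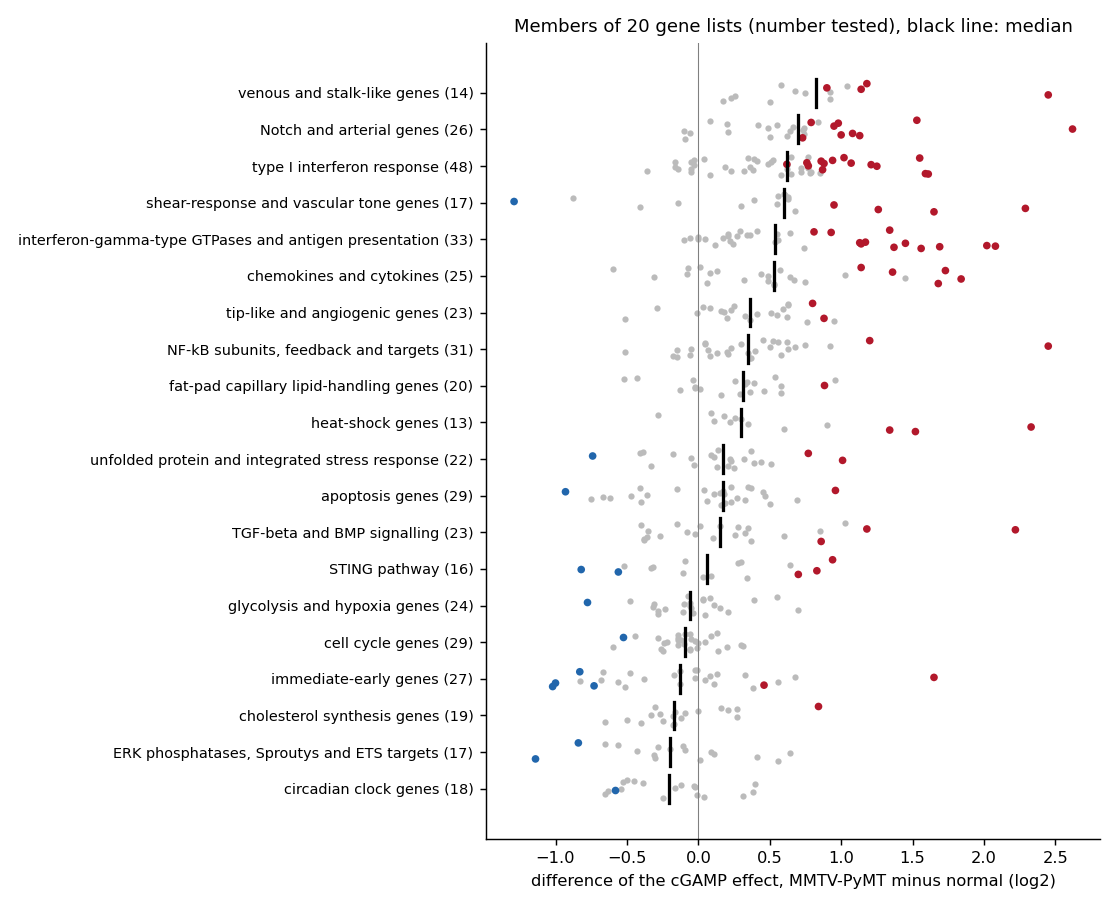
Difference of the cGAMP effect (x axis, log2) for the tested members of 20 gene lists (y axis, number tested in parentheses), with members that passed in red (higher) or blue (lower), others in grey and a black line at the median. The medians of 6 lists, venous and stalk-like, Notch and arterial, shear-response, chemokine and both interferon lists, lay between 0.53 and 0.83, and the medians of 6 lists were below zero.

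Of 13 tested heat-shock genes, 3 passed as higher (Hsph1, Hspa1a and Hspa1b) and 0 as lower, and 10 did not pass. The 3 were 23.1%, against 5.48% of all tested genes. The median was 0.30, with median changes of −0.44 in normal and −0.03 in MMTV-PyMT ECs. Hsph1, a partner chaperone of HSP70 (chromosome 5, 149614287 to 149636376), went from 17.7, 14.4 and 20.2 FPKM to 5.01, 4.86 and 4.44 FPKM in normal ECs. In MMTV-PyMT ECs it was at 6.97, 11.8 and 8.51 FPKM under PBS and at 11.5, 18.2 and 15.1 FPKM under cGAMP. The normal groups were apart and the tumour groups overlapped, and the difference was 2.33 (SE 0.36, Benjamini-Hochberg adjusted p = 0.00184 by limma). Hspa1a and Hspa1b, near-identical copies of the inducible HSP70 gene whose reads may be split, differed by 1.52 and 1.34. Hspa1b did not pass in 7 fits that left out 1 library (1.11 to 1.33 without normal PBS 1, PBS 3 or cGAMP 2, or MMTV-PyMT PBS 1, PBS 3, cGAMP 2 or cGAMP 3). Hspb1 (0.90, SE 0.28) and Hspa8 (0.60, SE 0.19), a small and a constitutive heat-shock protein, did not pass.

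Cirbp, the cold-inducible RNA-binding protein (chromosome 10, 80165985 to 80172786), had the largest difference among the genes called lower. Normal ECs had 4.36, 5.05 and 4.43 FPKM under PBS and 14.7, 16.7 and 21.3 FPKM under cGAMP. MMTV-PyMT ECs had 18.4, 19.9 and 20.6 FPKM under PBS and 16.3, 11.4 and 9.82 FPKM under cGAMP. Neither pair of groups overlapped, the change was 1.71 in normal and −0.64 in MMTV-PyMT ECs, and both changes passed (adjusted p = 2.47e-06 and 0.0222). The difference was −2.35 (SE 0.24, Benjamini-Hochberg adjusted p = 1.52e-04 by limma).

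Rbm3, the other classical cold-inducible RNA-binding protein (X chromosome, 8138975 to 8145880), was picked after its values were seen. It went from 13.6, 13.4 and 13.4 FPKM to 35.3, 38.6 and 30.7 FPKM in normal ECs and from 28.9, 30.1 and 29.2 FPKM to 33.9, 29.1 and 32.5 FPKM in MMTV-PyMT ECs. Only the normal PBS libraries stood apart, and the difference was −1.19 (SE 0.16, Benjamini-Hochberg adjusted p = 8.81e-04 by limma). Hnrnpdl, a splicing regulator that was among the 15 largest, had 8.61, 8.89 and 8.27 FPKM and 24.1, 26.3 and 26.1 FPKM in normal ECs against 17.3 to 18.6 FPKM and 17.2 to 20.6 FPKM in MMTV-PyMT ECs, a difference of −1.41 (SE 0.16). Srsf5, a splicing factor picked afterwards, differed by −1.27 (SE 0.18), with a rise in normal ECs of 1.0 and a change in MMTV-PyMT ECs of −0.27 that did not pass. The histone demethylase gene Kdm6b (−1.09, SE 0.15), also picked afterwards, rose by 1.33 in normal ECs with a change of 0.24 in MMTV-PyMT ECs that did not pass. The nuclear RNA Neat1 (−1.01, SE 0.23), picked in the same way, rose in both, by 1.57 and by 0.55.

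Metallothioneins, which bind zinc and copper, rose in both tissues and more in normal ECs. Mt2 (chromosome 8, 94172664 to 94173568) went from 11.7, 11.9 and 13 FPKM to 152, 187 and 107 FPKM in normal ECs and from 25.8, 27.1 and 13.9 FPKM to 92.1, 61.5 and 70.2 FPKM in MMTV-PyMT ECs. The tumour libraries lay above the normal ones under PBS and below them under cGAMP, and the difference was −1.73 (SE 0.38, Benjamini-Hochberg adjusted p = 0.0118 by limma). Its neighbour Mt1, with 21.1 to 28.7 FPKM in normal and 25.8 to 28.1 FPKM in MMTV-PyMT ECs under PBS, reached 78.9 to 142 FPKM and 37.3 to 55.5 FPKM under cGAMP, a difference of −1.34 (SE 0.29).

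Immediate-early and growth factor-induced genes were on the lower side in small number. Of 27 immediate-early genes 2 passed as higher (Klf2 and Jun) and 4 as lower (Fosl1, Egr3, Gadd45a and Fosl2), with a median of −0.13. These were 7.41% and 14.8%, against 5.48% and 2.90% of all tested genes. The 2 higher became 4 without MMTV-PyMT PBS 1. They became 1 with a pseudocount of 0.1, no filter, the 12 libraries alone, no trend, scaling by total reads or quantile normalization. They also became 1 in most fits that left out 1 library. The 4 lower became 7 with scaling by total reads, and 2 with a pseudocount of 0.1 or without normal PBS 2 or normal cGAMP 3. Fosl1, a subunit of AP-1, was at 0.136 to 0.333 FPKM in normal ECs under PBS and at 2.49, 2.62 and 2.99 FPKM under cGAMP, against 0.182 to 0.889 FPKM and 0.992 to 1.32 FPKM in MMTV-PyMT ECs, and differed by −1.02 (SE 0.22). These levels are low, and with a pseudocount of 0.1 the difference was −1.78 and did not pass (Benjamini-Hochberg adjusted p = 0.0502 by limma). Fosl2, another AP-1 subunit, differed by −0.73 and did not pass without normal PBS 2 (−0.64) and without normal cGAMP 3 (−0.67). Gadd45a, a gene of the DNA damage response, differed by −0.83 (SE 0.19). Egr3 (−1.0) and Jun (0.46), both transcription factors, each did not pass in 9 fits that left out 1 library, at −1.05 to −0.86 (all but normal PBS 1, normal cGAMP 2 and MMTV-PyMT PBS 3) and at 0.38 to 0.46 (all but normal PBS 2, normal cGAMP 3 and MMTV-PyMT PBS 1). Of 17 ERK phosphatases, Sproutys and ETS targets 0 passed as higher and 2 as lower. The 2 were 11.8%, against 2.90% of all tested genes. Phlda1 differed by −0.84, and Dusp4, a phosphatase that inactivates ERK, by −1.14 with a fall of 1.24 on the log2 scale in MMTV-PyMT ECs, from 19.0 to 20.6 FPKM down to 6.78 to 9.23 FPKM. Dusp4 did not pass in 9 fits that left out 1 library (−1.18 to −1.02; all but normal PBS 1, normal cGAMP 1 and MMTV-PyMT cGAMP 1). F3, the initiator of coagulation known as tissue factor, differed by −1.29, with a rise of 1.44 in normal ECs, and did not pass in 7 (−1.27 to −1.14 without normal PBS 2, PBS 3 or cGAMP 3, or MMTV-PyMT PBS 2, PBS 3, cGAMP 2 or cGAMP 3).

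The remaining large values on the lower side included genes of few reads. Hilpda, a lipid droplet protein induced by hypoxia, rose from 6.45, 7.03 and 6.61 FPKM to 18.8, 22.2 and 22.2 FPKM in normal ECs and was at 11.8 to 13.2 FPKM and 11.5 to 17.6 FPKM in MMTV-PyMT ECs, a difference of −1.38 (SE 0.30, Benjamini-Hochberg adjusted p = 0.0116 by limma). Smpdl3b, a phosphodiesterase of the plasma membrane, differed by −1.30 (SE 0.23), and the protein-coding gene 2410002F23Rik by −1.5 (SE 0.19). Prom2, a pentaspan membrane protein of epithelia (−1.42, SE 0.21), and Vtcn1, an inhibitory ligand found on epithelial tumour cells (−1.30, SE 0.31), are genes of epithelium. Prom2 changed by 0.85 in normal and by −0.57 in MMTV-PyMT ECs and Vtcn1 by 0.69 and by −0.60, while the mean epithelial marker sum went from 581 to 537 FPKM in normal and from 1246 to 957 FPKM in MMTV-PyMT ECs. The part of epithelial RNA in these values was not tested. Vtcn1 did not pass without normal PBS 2 (−1.17) and without normal PBS 3 (−1.25). The transcripts Gm36816 and Gm14453 are annotated as antisense, Gm5738 and Gm7785 as processed pseudogenes, Gm20416 as a processed transcript and Gm43946 as unclassified, and reads of these and their partner genes may not be told apart. Gm43946 did not pass without normal PBS 2 (−1.23) and without MMTV-PyMT cGAMP 3 (−1.27), and Gm5738 and Gm14453 did not pass with a pseudocount of 0.1 (−2.12 and −1.37). Of the 245 genes called in all, 217 were annotated as protein-coding.

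**Figure D5:**
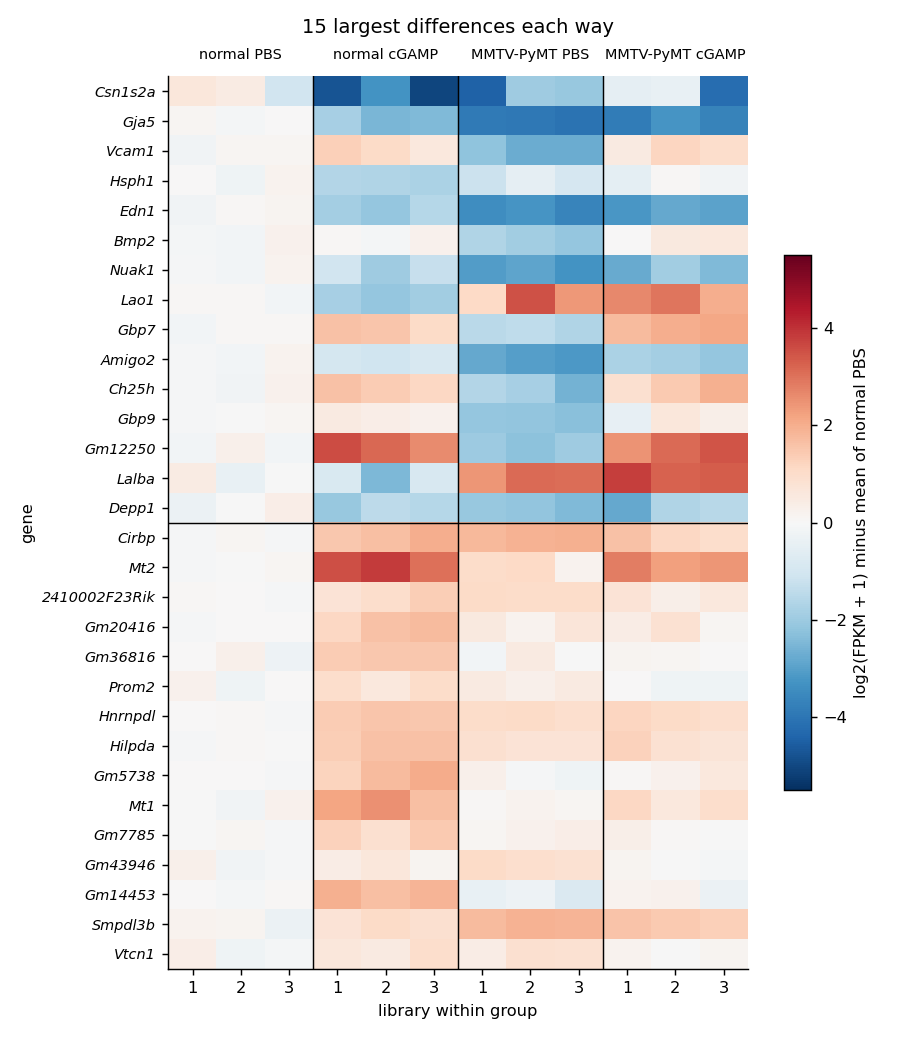
Heat map of log2(FPKM + 1) minus the mean of the normal PBS libraries (colour scale) for the 15 genes with the largest positive difference (upper rows) and the 15 with the largest negative difference (lower rows) in the 12 libraries (columns, 3 per group). Most upper rows are blue in MMTV-PyMT PBS columns, and most lower rows are red in the normal cGAMP columns, as for Mt2 with 107 to 187 FPKM there.

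Milk protein genes gave the largest single value with the widest spread. They are products of mammary epithelium and not of ECs, and of 9 tested 3 passed as higher (Csn1s2a, Lalba and Btn1a1). The 3 were 33.3%, against 5.48% of all tested genes. The sum of the 9 was 253 to 428 FPKM and 146 to 162 FPKM in normal ECs and 894 to 1493 FPKM and 1159 to 1801 FPKM in MMTV-PyMT ECs. Csn1s2a, a casein (chromosome 5, 87774567 to 87788797), had 58.3, 52.0 and 17.4 FPKM and then 0.424, 2.99 and 0.184 FPKM in normal ECs. In MMTV-PyMT ECs it had 0.752, 9.03 and 8.20 FPKM under PBS and 26.4, 28.2 and 1.09 FPKM under cGAMP. The normal groups did not overlap, and the tumour groups did, with library 1 under PBS and library 3 under cGAMP near 1 FPKM. The difference was 5.48 (SE 1.24, Benjamini-Hochberg adjusted p = 0.0136 by limma). Csn2 and Csn1s1, also caseins, had 4.12 (SE 1.51) and 3.33 (SE 1.29) and did not pass. Lalba, which encodes alpha-lactalbumin, differed by 1.97 and did not pass in 10 fits that left out 1 library (1.43 to 2.19; all but normal cGAMP 1 and cGAMP 3). Btn1a1, of the milk fat globule, differed by 1.67 and did not pass in 9 (1.40 to 1.79; all but normal cGAMP 1, MMTV-PyMT PBS 2 and MMTV-PyMT cGAMP 3). Lao1, an L-amino acid oxidase of mammary gland and milk, differed by 2.16 and did not pass in 11 (1.54 to 2.42; all but MMTV-PyMT PBS 2). The part of epithelial RNA in these values was not tested.

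Of 16 tested genes of the STING pathway, 3 passed as higher and 2 as lower, together 31.2% against 8.37% of all tested genes. Their differences ran from −0.82 to 0.94 with a median of 0.06. The 3 became 1 without normal PBS 3, normal cGAMP 2, MMTV-PyMT PBS 3, MMTV-PyMT cGAMP 2 or MMTV-PyMT cGAMP 3, or with the replicate block, and the 2 became 0 in those same 5 left-out fits. Tyk2, the receptor-bound kinase, fell in normal ECs from 4.54, 5.16 and 5.54 FPKM to 2.29, 2.43 and 2.48 FPKM and was at 2.48 to 3.09 FPKM and 2.59 to 3.45 FPKM in MMTV-PyMT ECs, a difference of 0.94 (SE 0.15, Benjamini-Hochberg adjusted p = 0.00287 by limma). Tmem173, which encodes STING, had 0.34 (SE 0.21) and did not pass. The factor Irf3 (0.70) and the volume-regulated channel subunits Lrrc8c (0.83), Lrrc8d (−0.82) and Lrrc8b (−0.56), part of a channel that can carry cGAMP, passed. Irf3 did not pass in 8 fits that left out 1 library (0.61 to 0.70; all but normal PBS 2, normal cGAMP 1, MMTV-PyMT PBS 2 and MMTV-PyMT cGAMP 1), Lrrc8c in 8 (0.73 to 0.84; all but normal PBS 1, normal cGAMP 3, MMTV-PyMT PBS 1 and MMTV-PyMT cGAMP 1), Lrrc8d in 5 (−0.81 to −0.70 without normal PBS 3 or cGAMP 2, or MMTV-PyMT PBS 3, cGAMP 2 or cGAMP 3) and Lrrc8b in 10 (−0.58 to −0.52; all but normal cGAMP 1 and MMTV-PyMT cGAMP 1).

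Of 29 cell cycle genes 0 passed as higher and 1 as lower, Pcna, the sliding clamp of DNA replication, at −0.53 (SE 0.09), with 30.1 to 31.9 FPKM and 51.8 to 55.7 FPKM in normal and 33.6 to 35.2 FPKM and 39.8 to 41.4 FPKM in MMTV-PyMT ECs. The 1 cell cycle gene was 3.45% of its list, near the 2.90% of all tested genes that passed as lower. Without MMTV-PyMT PBS 1, 2 cell cycle genes passed as lower. Of 29 apoptosis genes 1 passed each way, 3.45% of the list, against 5.48% of all tested genes as higher and 2.90% as lower. The higher count became 2 without MMTV-PyMT cGAMP 1 or with the 12 libraries alone. It became 0 without normal PBS 3, normal cGAMP 2, normal cGAMP 3, MMTV-PyMT PBS 3 or MMTV-PyMT cGAMP 2. The lower count became 5 with scaling by total reads, 4 with quantile normalization and 2 with voom. It was 3 without MMTV-PyMT cGAMP 1, with the 12 libraries alone or under a filter at 5 FPKM on average. It was 0 without normal PBS 2 or MMTV-PyMT cGAMP 3. Tnfrsf1b, the second receptor of TNF, differed by 0.96 and did not pass in 5 fits that left out 1 library (0.81 to 0.90 without normal PBS 3, cGAMP 2 or cGAMP 3, or MMTV-PyMT PBS 3 or cGAMP 2). Tnfrsf10b, the receptor of TRAIL, differed by −0.93 and did not pass in 4 (−0.90 to −0.82 without normal PBS 2 or cGAMP 3, or MMTV-PyMT PBS 1 or cGAMP 3). The cytokine Tnf itself, chosen after its values were seen, had 0.13 (SE 0.38).

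Of 22 genes of the unfolded protein and integrated stress responses 2 passed as higher and 1 as lower. These were 9.09% and 4.55%, against 5.48% and 2.90% of all tested genes. The chaperone-like gene Creld2 differed by 1.01 (SE 0.22) and the transcription factor Atf4 by −0.74 (SE 0.13), while Trib3, a target of ATF4, differed by 0.77 and did not pass without normal PBS 3 (0.71), MMTV-PyMT PBS 1 (0.71) and MMTV-PyMT cGAMP 3 (0.75). Atf4 and its target thus stood on opposite sides. Of 19 cholesterol synthesis genes 1 passed as higher, the sterol carrier gene Stard4 (0.84), which did not pass without MMTV-PyMT cGAMP 2 (0.77). That share, 5.26%, was near the 5.48% of all tested genes. Of 24 glycolysis and hypoxia genes 1 passed as lower, the carbonic anhydrase gene Car9 (−0.78), and of 18 clock genes 1, the repressor Cry2 (−0.58). These were 4.17% and 5.56%, against 2.90% of all tested genes. Car9 did not pass in 8 fits that left out 1 library (−0.81 to −0.64; all but normal PBS 1, normal cGAMP 1, normal cGAMP 2 and MMTV-PyMT cGAMP 1) and Cry2 in 10 (−0.63 to −0.46; all but normal cGAMP 2 and MMTV-PyMT cGAMP 1).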

How the data were processed

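ECs were enriched on CD31 beads, sorted, and sequenced from directional libraries. The authors aligned reads with STAR 2.7 to mm10 and counted them with HTSeq, and they deposited 1 table of FPKM values for 18 libraries. How the FPKM values were scaled, and the strand setting of the counting, are not given in the sources used here. No column lacked a matched sample (0).

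Of 16248 genes, the 13983 that reached 1 FPKM in 3 or more libraries were tested on log2(FPKM + 1) with limma 3.58.1 in R 4.3.3, using 1 mean for each of 6 groups in 18 libraries, moderated with a trend, 2-sided, with Benjamini-Hochberg adjustment. The comparison was the MMTV-PyMT change minus the normal change. Scripts were tested on simulated data. Named genes were the 15 largest called differences either way, list members that passed (the 4 largest either way per list), and up to 3 members per list that did not pass. Rbm3, Srsf5, Gdf11, Kdm6b, Neat1, Gper1, Tmem100, Cxcl10, Tnf, Dll4, Cdh5, Igtp, Gbp4, Irgm2, Iigp1, Cd274, Psmb9, Psmb10, Stat2, Parp14, Samd9l, Mx1, Jag2, Notch4, Sema3g, Bmx and Fbln5 were chosen after their values were seen. The comparison and the lists were chosen with earlier results of these data known. Alternatives covered the pseudocount, filter, scaling, model, replicate block and each left-out library. Some genes that the rule covers are not reported here.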

Additional observations from a re-analysis of the deposited data

Results flagged for a closer look

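The cGAMP effect differed between MMTV-PyMT and normal ECs by the test of the difference itself for the 30 genes with the largest called values (limma with Benjamini-Hochberg adjustment). On the higher side the differences (log2) were 5.48 for Csn1s2a, 2.62 for Gja5, 2.45 for Vcam1, 2.33 for Hsph1, 2.29 for Edn1, 2.22 for Bmp2, 2.16 for Nuak1 and for Lao1, 2.08 for Gbp7, 2.06 for Amigo2, 2.05 for Ch25h, 2.02 for Gbp9, 1.99 for Gm12250, 1.97 for Lalba and 1.94 for Depp1. On the lower side they were −2.35 for Cirbp, −1.73 for Mt2, −1.5 for 2410002F23Rik and for Gm20416, −1.46 for Gm36816, −1.42 for Prom2, −1.41 for Hnrnpdl, −1.38 for Hilpda, −1.37 for Gm5738, −1.34 for Mt1, −1.33 for Gm7785 and for Gm43946, −1.31 for Gm14453, and −1.30 for Smpdl3b and for Vtcn1. Groups of 3 libraries are too small for a test of single outlying libraries.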

How the results depend on the processing

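Of 102 named genes that passed, 62 passed in all of the 21 alternatives that tested them, 40 did not pass in at least 1, and 0 changed direction. Those that did not pass were Lalba, Gm5738, Gm14453, Cd40, Jun, Fosl1, Egr3, Ackr1, Plxnd1, Mx1 and Bmx with a pseudocount of 0.1, Lao1, Gm5738, Gm14453, Cd40 and Mx1 with voom, Lalba, Jun, Ackr1, Plxnd1, Thbd, Irf3, Btn1a1, Mx1 and Notch4 with scaling by total reads, Lalba, Jun, Thbd and Mx1 with quantile normalization, Lao1, Lalba, Jun, Ackr1, Plxnd1, Cry2 and Notch4 with no filter, the same genes except Cry2 with no trend, and Jun with the 12 libraries alone. With a pseudocount of 0.1, 274 genes were called higher and 104 lower, and with voom on recovered reads 287 and 115. A mean FPKM of at least 5 left 34 called lower, with fewer genes tested (6910). Named genes at lower levels, such as Hey2 and Gm7785, were not tested under that filter. Scaling by total reads gave 115 called lower and, by the adjusted p alone, 566 higher and 888 lower, and quantile normalization 868 and 699; the cause was not tested. Leaving out 1 library gave 129 to 242 genes called higher and 45 to 78 called lower, and 395 to 908 higher and 210 to 493 lower by the adjusted p alone. The latter counts moved by over 1.5 times without normal PBS 2 (467 and 235), normal PBS 3 (395 and 231), MMTV-PyMT PBS 3 (455 and 246), MMTV-PyMT cGAMP 2 (469 and 243) and MMTV-PyMT cGAMP 3 (421 and 210), and on the lower side without normal cGAMP 2 (267). Libraries were treated as unpaired. Same-numbered deviations correlated at −0.19 to 0.26, over 0.1 in 2 of 18 pairs. This cannot exclude that groups shared experiments, since the replicate numbers need not stand for the experiment and each group has 3 libraries. A fit with the replicate block called 167 and 62 genes, and Lalba, Cd40, Ackr1, Tek, Plxnd1, Thbd, Lrrc8c, Irf3, Btn1a1 and Notch4 did not pass in it. Genes at low levels, such as Mx1 and Fosl1, depended on the pseudocount.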

Other observations

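The implanted tumour ECs, whose 6 libraries enter no value of the comparison, gave their own change under cGAMP for the same genes. Bmp2 changed by 4.07 there on the log2 scale, Vcam1 by 3.42, Mt2 by 2.42, Gdf11 by 2.31, Gbp7 by 2.15 and Il33 by 1.98. Gja5 changed by −0.78, Klf2 by 0.65, Rbm3 by 0.60, Cirbp by 0.22, Edn1 by 0.05 and Hsph1 by −0.29. Over the 179 genes called higher the median change in implanted tumour ECs was 0.27, against 0.50 in MMTV-PyMT and −0.75 in normal ECs, and over the 66 called lower it was 0.25, against −0.09 and 1.08. No test compared the implanted tumours with the other tissues here.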
